A study of Saccharomyces cerevisiae with 15 samples.

Results

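The sulfur genes of Saccharomyces cerevisiae examined here are 39 listed genes for taking up and reducing sulfate, making and recycling methionine, and controlling both. They were chosen by gene symbol from the annotation of the array probes, and 38 of them were measured among 6253 genes or probes. JLP1 was listed but was not analysed here. By role, the measured genes comprised 8 of sulfate reduction (MET3, MET14, MET16, MET5, MET10, MET1, MET8 and MET22) and 6 of homocysteine and methionine synthesis (MET2, MET17, MET6, MET7, MET12 and MET13). A further 4 act in transsulfuration (CYS3, CYS4, STR2 and STR3) and 5 in the S-adenosylmethionine cycle (SAM1, SAM2, SAH1, SAM4 and MHT1). The others were 7 uptake genes (SUL1, SUL2, MUP1, MUP3, MMP1, SAM3 and SEO1), 6 regulators (MET4, MET28, MET31, MET32, MET30 and CBF1) and 2 glutathione genes (GSH1 and GSH2).

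Yeast cells import sulfate, activate it with ATP, reduce it to sulfite and then to sulfide, and fix the sulfide on a carbon backbone to give homocysteine, from which methionine, cysteine, S-adenosylmethionine and glutathione are made. Transcription of the pathway depends on the activator Met4, which binds DNA through partners such as Cbf1, Met31 and Met32, with Met28 as a cofactor. The ubiquitin ligase subunit Met30 holds Met4 inactive when sulfur compounds are plentiful.

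The study asked how the TORC1 kinase complex and related nutrient signals set gene expression in starvation and stress. It compared RNA from yeast treated for 20 min with RNA from mid-log cells on 2-colour arrays, 1 array per condition. Cells were of the W303 background, mating type a, grown in SD medium. The wild type was ACY044, and ACY509 was a strain with SNF1 deleted by homologous recombination, SNF1 encoding the yeast AMP-activated protein kinase. Wild-type cells were given a single treatment on 7 arrays, namely a medium without nitrogen, one without amino acids, 200 nM rapamycin (a TORC1 inhibitor), 0.375 M KCl, 0.1% glucose, 0.4 mM hydrogen peroxide or a shift to 42 °C. On 3 more arrays they were starved for nitrogen and glucose together, starved for glucose with 200 nM rapamycin, or starved for nitrogen with 0.375 M KCl. The snf1 cells were starved for nitrogen, given 0.375 M KCl, or held in 0.1% or 0.02% glucose, and 1 array set untreated snf1 cells against untreated wild-type cells. The strain ACY142 was not analysed here. The labels do not give the media's content of methionine or sulfate, so whether either changed with the nitrogen or amino acid medium is not known.

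Every value is a log2 ratio of treated over mid-log cells of the same strain (for the untreated pair, snf1 over wild type). A value of 1 means 2-fold higher and −1 means 2-fold lower. Treated snf1 and wild-type arrays therefore compare the responses of the strains, not their levels. A culture was measured as a whole, and a change in all cells cannot be told apart from a larger change in some of them. The precision is limited by the number of arrays. Medians over all genes lay between −0.15 and 0.03. On 6 arrays the spots listed at exactly 0, 717 to 1256 of them, were taken as no value, and the peroxide array had blanks instead. This left 31 members with a value on all 14 treated arrays. MET16, MET2, STR3, SUL1, SUL2, MET31 and MET32 lacked a value on at least 1. The probe for SNF1 had no value on the untreated strain array and read 0.05 to 2.57 on the treated snf1 arrays, so it gave no check of the deletion.

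Most sulfur genes stood at least 2-fold above mid-log after 20 min when nitrogen or amino acids were withdrawn with glucose present, and few of them did so on the other arrays. In nitrogen starvation 25 of 37 measured members were at least 2-fold higher, against 14.7% of all genes, with a median of 2.51 over members and 0.01 over all genes. In amino acid starvation the count was 26 of 37 against 13.4%, with a median of 2.89. The snf1 cells starved for nitrogen had 27 of 38 against 14.4%, and wild-type cells starved for nitrogen with KCl had 22 of 38 against 18.4%. Wild-type cells starved for nitrogen and glucose together had 4 of 38, against 16.3% of all genes, and their median was −0.12. Of the 50 genes with the highest ratio on an array, members made up 12 without nitrogen, 16 without amino acids, 14 in snf1 cells without nitrogen and 2 with nitrogen starvation and KCl. They made up 0 of the 50 on each of the other 10 treated arrays.

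**Figure D1:**
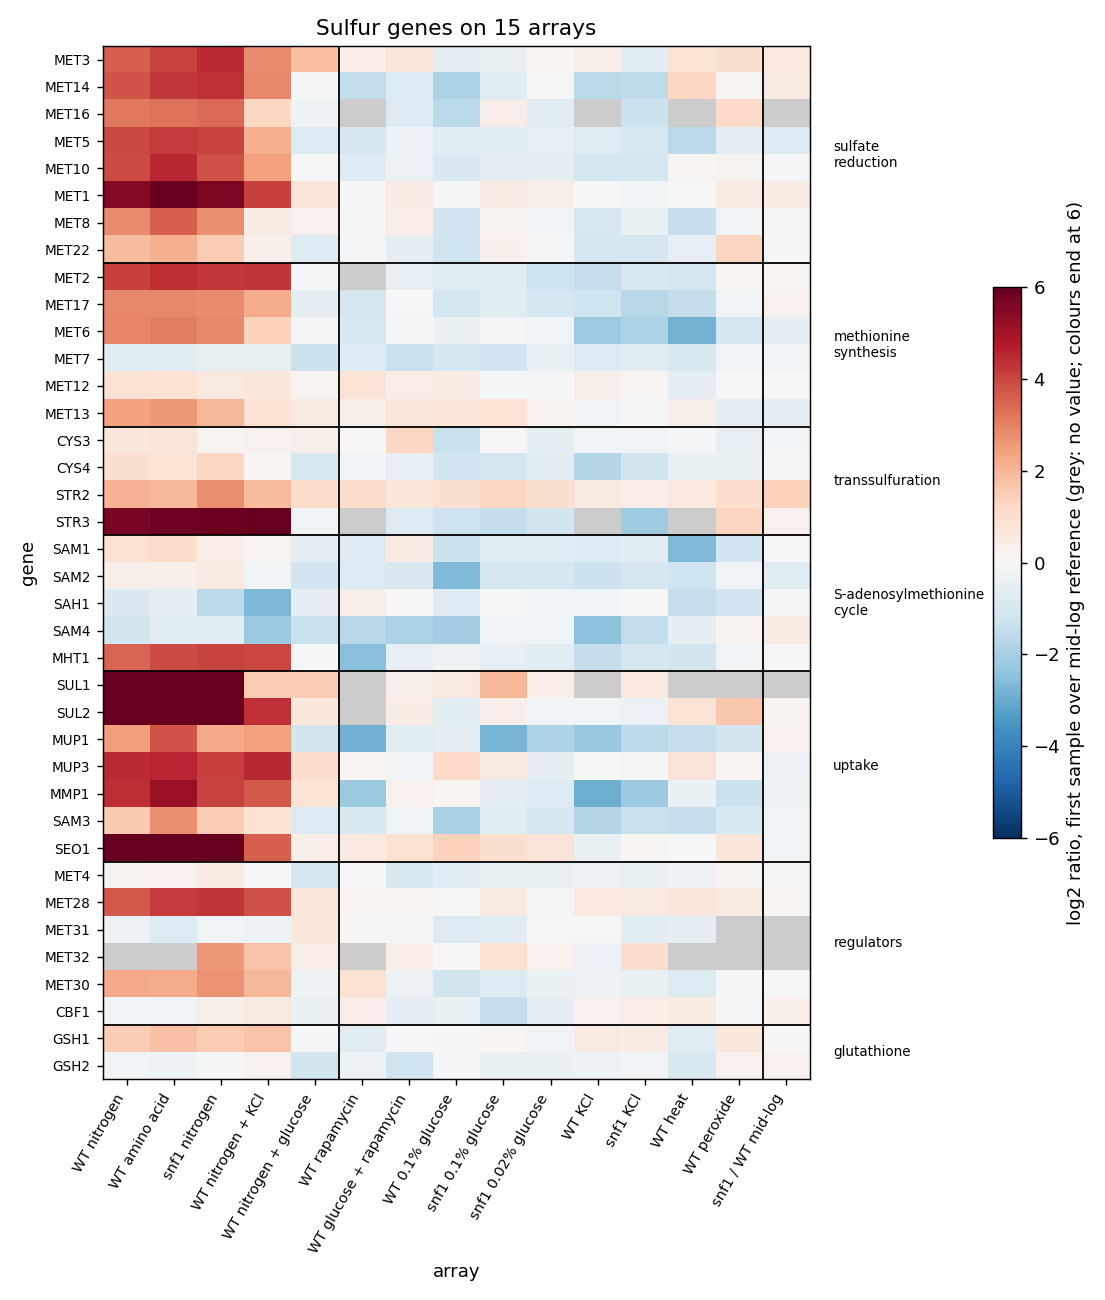
Each row is 1 of the 38 measured sulfur genes, grouped by role, and each column is 1 array. Colour gives the log2 ratio (red higher, blue lower, grey no value), with colours ending at 6, a value that SEO1, SUL1, SUL2, MET1 and STR3 exceed on at least 1 array. The first 4 columns are red for most genes of sulfate reduction and uptake, and the fifth, nitrogen and glucose starvation, is not.

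The roles differed in size of response. In nitrogen starvation the median was 4.48 for the 7 uptake genes, 3.67 for the 8 sulfate reduction genes, 2.64 for the 6 genes of methionine synthesis and 1.52 for the 4 transsulfuration genes. It was 0.32 for the 5 genes of the S-adenosylmethionine cycle and 0.22 for the 5 regulators with a value. All 8 sulfate reduction genes and all 7 uptake genes were at least 2-fold higher when wild-type cells lacked nitrogen or amino acids and when snf1 cells lacked nitrogen. Among the regulators 2 of 5 were in wild-type cells, MET28 and MET30.

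The 5 arrays of nitrogen or amino acid removal were then compared with the other 9 treated arrays by limma, fitted over the 4866 genes with a value on all 14. Of 31 members, 20 rose with removal (Benjamini-Hochberg adjusted p below 0.05) against 2.12% of all genes fitted, and 0 fell, against 3.99%. Another 4, of which SAH1 was lower and the others higher, passed only an unadjusted p below 0.05. The median coefficient, the mean log2 difference between the groups, was 2.15 over members and 0.01 over all genes. In this comparison a gene that rose by a value has that coefficient, which includes any fall below mid-log on the other 9 arrays. Of the 20 genes with the largest coefficients 13 were members. The replicates here are different treatments and strains, and the labels do not say whether arrays shared a mid-log RNA.

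The number called depended on which arrays were used. With wild-type arrays alone (4 against 6), limma called 0 of 31 members and 0 of all genes, the lowest adjusted p of a member being 0.0929, although the median member coefficient was 1.84 and 22 members were higher at an unadjusted p below 0.05. When the array of nitrogen and glucose starvation was also left out, a choice made after seeing the data, 18 of 31 members rose against 1.32% of genes. With wild-type single treatments only (2 arrays against 5), 16 of 31 rose against 1.01%. Leaving out 1 array of the full comparison at a time gave 13 to 23 members higher. The lowest count, 13, came without wild-type nitrogen starvation (against 0.571% of genes) and again without snf1 nitrogen starvation (against 0.596%), and the highest, 23, came without nitrogen and glucose starvation (against 5.8%). With genes kept that lacked some values, 22 of 38 members rose against 1.63%, MET2, STR3 and SUL2 being added and CYS4 lost (adjusted p = 0.0537).

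**Figure D2:**
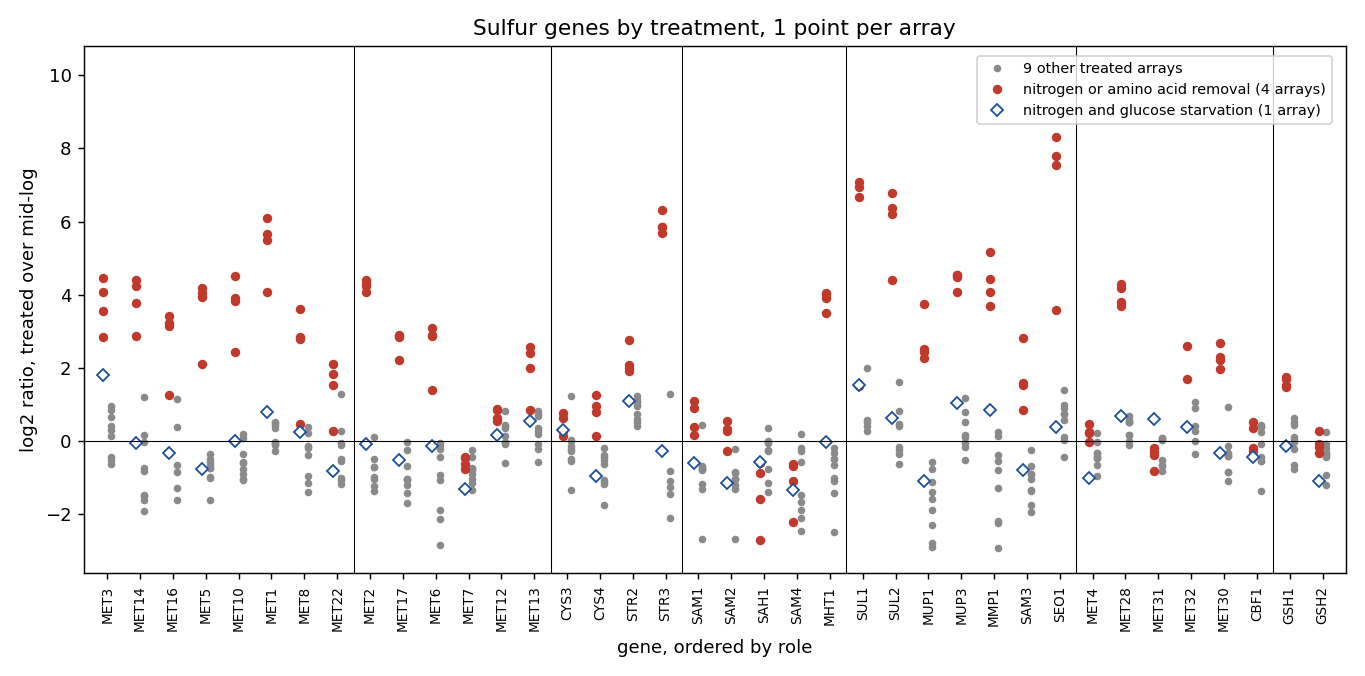
Each point is the log2 ratio of 1 sulfur gene on 1 treated array, with genes ordered by role along the horizontal axis. Red points are the 4 arrays of nitrogen or amino acid removal with glucose, blue diamonds the array of nitrogen and glucose starvation, and grey points the other 9 arrays. For MET1 the red points lie between 4.08 and 6.10 and the grey points between −0.27 and 0.53.

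In sulfate reduction 6 of the 7 fitted genes rose, and MET22 did not pass (coefficient 1.31, adjusted p = 0.125). MET1, which with MET8 makes the siroheme cofactor of sulfite reductase, stood at 5.49 without nitrogen, 6.10 without amino acids, 5.67 in snf1 cells without nitrogen, 4.08 without nitrogen but with KCl, and 0.79 without nitrogen and glucose. On the other 9 arrays MET1 ran from −0.27 to 0.53 with a median of −0.03. All 5 removal arrays lay above the other 9, the fifth by a small margin, and the coefficient was 4.28 (SE 0.628, adjusted p = 0.0021).

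MET14, which encodes adenylylsulfate kinase, stood at 3.77 without nitrogen, 4.23 without amino acids, 4.40 in snf1 cells without nitrogen, 2.87 without nitrogen but with KCl, and −0.06 without nitrogen and glucose. Its other 9 values ran from −1.91 in 0.1% glucose to 1.22 at heat shock, with a median of −0.81. The first 4 removal arrays lay above all 9, while nitrogen and glucose starvation fell among them. The coefficient was 3.78 (SE 0.663, adjusted p = 0.00725). MET3, for ATP sulfurylase, the first enzyme of the pathway, had the highest value of the role without nitrogen and glucose, 1.81, and rose with a coefficient of 3.16 (adjusted p = 0.00136). MET5 and MET10, the subunits of sulfite reductase, both rose with a coefficient of 3.50, and MET8 rose by 2.41. MET16, for the reductase that makes sulfite, had values on 11 of the treated arrays and was at 3.15 without nitrogen, 3.24 without amino acids and 1.25 with nitrogen starvation and KCl. Its adjusted p was 0.0544. MET22 encodes a phosphatase that clears the adenosine phosphate by-product of the pathway.

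In homocysteine and methionine synthesis 3 of the 5 fitted genes rose. MET6, for methionine synthase, stood at 2.91 without nitrogen, 3.09 without amino acids, 2.88 in snf1 cells without nitrogen, 1.39 without nitrogen but with KCl, and −0.14 without nitrogen and glucose. Its other 9 values ran from −2.84 at heat shock to −0.05, with a median of −0.93. It was thus below its mid-log level on all 9 of those arrays and above it on 4 of the removal arrays, with a coefficient of 3.10 (SE 0.566, adjusted p = 0.0078).

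MET2, for homoserine acetyltransferase, stood at 4.08 without nitrogen, 4.41 without amino acids, 4.24 in snf1 cells without nitrogen, 4.30 without nitrogen but with KCl, and −0.09 without nitrogen and glucose. On the 8 other arrays with a value it ran from −1.37 to 0.11. Those 4 high values lay within 0.33 of each other, and the fifth was among the 8. In the comparison that kept genes with missing values MET2 rose by 4.19 (SE 0.622, adjusted p = 0.00407). MET17, which fixes sulfide on acetylhomoserine, rose by 2.99, and MET13, for a methylenetetrahydrofolate reductase, by 1.43. MET12, for the other such reductase, was not called (0.46, adjusted p = 0.26).

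MET7 encodes folylpolyglutamate synthetase, which adds the glutamate chain that methionine synthase needs on its folate. It was at −0.75 without nitrogen, −0.61 without amino acids, −0.43 in snf1 cells without nitrogen, −0.45 without nitrogen but with KCl, and −1.30 without nitrogen and glucose. The other 9 arrays ran from −1.33 to −0.24 with a median of −0.79. MET7 was below 0 on 14 of 14 treated arrays, and the 2 sets of arrays overlapped (coefficient 0.11, adjusted p = 0.814).

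Transsulfuration exchanges sulfur between homocysteine and cysteine, and its genes differed widely in size of response. STR3, for the lyase that turns cystathionine into homocysteine, stood at 5.69 without nitrogen, 5.84 without amino acids, 5.86 in snf1 cells without nitrogen, 6.31 without nitrogen but with KCl, and −0.26 without nitrogen and glucose. Its 6 other values ran from −2.11 to 1.30. STR3 was the member with the highest ratio under nitrogen starvation with KCl, and with missing values kept it rose by 5.59 (SE 1.05, adjusted p = 0.0174).

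STR2 makes cystathionine from cysteine and precedes STR3. It was at 2.08 without nitrogen, 2.00 without amino acids, 2.77 in snf1 cells without nitrogen, 1.91 without nitrogen but with KCl, and 1.09 without nitrogen and glucose. The other 9 arrays ran from 0.41 to 1.23 with a median of 0.97, so STR2 was above 0 on 14 of 14 treated arrays and higher still with removal (coefficient 1.12, SE 0.24, adjusted p = 0.0142). CYS4 and CYS3 act the other way, from homocysteine to cysteine. CYS4 stood at 0.96 without nitrogen, 0.81 without amino acids, 1.26 in snf1 cells without nitrogen, 0.14 without nitrogen but with KCl, and −0.96 without nitrogen and glucose, with the other 9 from −1.75 to −0.19 and a median of −0.61. Its coefficient was 1.24 (SE 0.341, adjusted p = 0.04), and much of that difference lay in values below 0 on the other arrays. CYS3 ran from −1.34 to 1.23 over the 14 arrays and was not called (0.62, adjusted p = 0.264).

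In the S-adenosylmethionine cycle 1 of 5 genes rose. MHT1, for the enzyme that makes methionine from S-methylmethionine and homocysteine, stood at 3.50 without nitrogen, 3.91 without amino acids, 4.04 in snf1 cells without nitrogen, 4.03 without nitrogen but with KCl, and −0.03 without nitrogen and glucose. Its other 9 values ran from −2.49 with rapamycin to −0.19, with a median of −0.65. Every one of the 9 was below 0 and below the removal arrays, and the coefficient was 3.99 (SE 0.578, adjusted p = 0.002).

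SAM1, for a S-adenosylmethionine synthetase, stood at 0.91 without nitrogen, 1.10 without amino acids, 0.38 in snf1 cells without nitrogen, 0.18 without nitrogen but with KCl, and −0.60 without nitrogen and glucose. The other 9 arrays ran from −2.67 at heat shock to 0.43, with a median of −0.76. The sets overlapped and SAM1 was not called (1.33, SE 0.391, adjusted p = 0.0567). SAM2, its near-identical copy, can share signal with it and was not called either (1.08, adjusted p = 0.0794). SAH1, which splits S-adenosylhomocysteine, and SAM4, which uses S-adenosylmethionine to make methionine from homocysteine, had coefficients of −0.86 and −0.03 and were not called. SAM4 was below 0 on 13 of 14 arrays. MHT1 and SAM4, which make methionine with different methyl donors, thus had values of opposite sign without nitrogen or amino acids.

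All 5 fitted uptake genes rose. SEO1, for a putative permease, stood at 7.80 without nitrogen, 7.56 without amino acids, 8.32 in snf1 cells without nitrogen, 3.59 without nitrogen but with KCl, and 0.38 without nitrogen and glucose. Its other 9 values ran from −0.43 to 1.40 with a median of 0.74. The first pair of values corresponds to 223-fold and 189-fold, and the last lies inside the range of the 9. The coefficient was 4.96 (SE 0.988, adjusted p = 0.012).

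MMP1, the permease for S-methylmethionine, stood at 4.44 without nitrogen, 5.16 without amino acids, 4.07 in snf1 cells without nitrogen, 3.70 without nitrogen but with KCl, and 0.84 without nitrogen and glucose. The other 9 ran from −2.92 in KCl to 0.26, with a median of −0.80. All 5 removal arrays lay above the 9 (coefficient 4.75, SE 0.651, adjusted p = 0.00155). MMP1 and MHT1, the permease and the enzyme for S-methylmethionine, are divergent neighbours in the RefSeq R64 annotation.

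SUL1 and SUL2 encode the high-affinity sulfate permeases. SUL1 was at 6.94 without nitrogen, 7.07 without amino acids and 6.67 in snf1 cells without nitrogen, then at 1.5 with nitrogen starvation and KCl and 1.53 in nitrogen and glucose starvation. SUL2 was at 6.38, 6.79 and 6.22 on the first 3 of those arrays, at 4.40 with KCl and at 0.64 without glucose. SUL1 had a value on 5 of the other 9 arrays, the highest 2.01 in snf1 cells in 0.1% glucose, and was not called (adjusted p = 0.0756), while SUL2 rose by 4.64 (adjusted p = 0.0108). The methionine permease genes MUP1 (high affinity) and MUP3 (low affinity) rose by 3.67 and 3.52, and SAM3, for the S-adenosylmethionine permease, by 2.32. Means on the removal arrays and on the other arrays were 1.98 and −1.69 for MUP1, 3.74 and 0.22 for MUP3, and 1.19 and −1.13 for SAM3.

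Among the regulators, the cofactor gene MET28 and the inhibitor gene MET30 rose while MET4 itself was not called. MET28, for a cofactor of Met4, stood at 3.70 without nitrogen, 4.19 without amino acids and 4.30 in snf1 cells without nitrogen. It stood at 3.81 without nitrogen but with KCl, and at 0.69 without nitrogen and glucose. The other 9 ran from −0.11 to 0.70 with a median of 0.52. MET30 stood at 2.29 without nitrogen, 2.21 without amino acids, 2.68 in snf1 cells without nitrogen, 1.98 without nitrogen but with KCl, and −0.32 without nitrogen and glucose. The other 9 ran from −1.09 to 0.93, the highest with rapamycin, with a median of −0.40. For both genes 4 removal arrays lay above the 9 and the fifth lay among them, with coefficients of 2.995 for MET28 (SE 0.451, adjusted p = 0.00264) and 2.15 for MET30 (SE 0.423, adjusted p = 0.012).

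MET4 stood at 0.22 without nitrogen, 0.25 without amino acids, 0.48 in snf1 cells without nitrogen, −0.02 without nitrogen but with KCl, and −1.01 without nitrogen and glucose, with the other 9 from −0.94 to 0.23 and a median of −0.41. CBF1 stood at −0.18 without nitrogen, −0.28 without amino acids, 0.35 in snf1 cells without nitrogen, 0.52 without nitrogen but with KCl, and −0.44 without nitrogen and glucose, with the other 9 from −1.36 to 0.43 and a median of −0.08. Neither was called (MET4 0.36, adjusted p = 0.448, and CBF1 0.16, adjusted p = 0.803). MET31 and MET32 encode similar zinc-finger partners of Met4. MET31 ran from −0.82 to −0.19 on the 4 removal arrays with glucose. MET32 had no value in wild-type nitrogen or amino acid starvation, and read 2.59 in snf1 nitrogen starvation and 1.69 with nitrogen starvation and KCl.

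The glutathione genes differed as well. GSH1, for the first and rate-limiting enzyme of glutathione synthesis, stood at 1.47 without nitrogen, 1.76 without amino acids, 1.53 in snf1 cells without nitrogen, 1.70 without nitrogen but with KCl, and −0.14 without nitrogen and glucose. Its other 9 values ran from −0.75 to 0.63 with a median of 0.06, and it rose by 1.25 (SE 0.32, adjusted p = 0.0301). GSH2, for the second enzyme, stood at −0.16 without nitrogen, −0.31 without amino acids, −0.07 in snf1 cells without nitrogen, 0.28 without nitrogen but with KCl, and −1.08 without nitrogen and glucose. With the other 9 from −1.21 to 0.26 and a median of −0.35, GSH2 was not called (0.13, adjusted p = 0.81).

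Over the 31 members with complete values, 4 had all 5 removal arrays above the other 9 (MET3, MET1, MHT1 and MMP1), against 0.534% of genes. With the array of nitrogen and glucose starvation set aside, after its values were seen, 20 of 31 had the other 4 above the 9, against 3.66% of genes. Of 30 other genes of sulfur and one-carbon metabolism, listed beside the members, 19 were measured and 18 were fitted. Of these 3 rose and 0 fell, namely OPT1 for an oligopeptide and glutathione transporter (3.53, adjusted p = 0.00725), MXR1 for a methionine sulfoxide reductase (2.46, adjusted p = 0.00725) and AGP3 for an amino acid permease (1.90, adjusted p = 0.012).

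Differences between 2 single arrays have no replicate and were not tested. Most members stood lower without nitrogen and glucose than without nitrogen alone. The difference was 2-fold or more downward for 28 of 37 members, against 12.4% of all genes, with a median difference of −2.61 over members and −0.07 over all genes. All 8 sulfate reduction genes and all 7 uptake genes were among the 28, led by SEO1 at −7.42, STR3 at −5.95 and SUL2 at −5.74. Of the 25 members at least 2-fold higher in nitrogen starvation, 4 stayed at least 2-fold higher without glucose, which were MET3, SUL1, STR2 and MUP3. In that condition 4 of 38 members were at least 2-fold higher than mid-log, against 16.3% of genes. Another 6 were at least 2-fold lower, against 18.1% of genes, and the remaining 28 stood within 2-fold of mid-log.

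With 0.375 M KCl added to nitrogen starvation, 13 of 37 members stood lower by 2-fold or more, against 9.81% of genes. The affected roles were uneven. Of the 8 sulfate reduction genes 6 were 2-fold or more lower (median difference −1.5), and SUL1 differed by −5.44, SEO1 by −4.21 and SUL2 by −1.98. MET2, STR3, MHT1, MUP1, MUP3, MET28, MET30 and GSH1 differed from their nitrogen values by −0.31 to 0.62. On the array of KCl alone, 0 of 35 members were at least 2-fold higher, against 13.2% of genes, and 13 were at least 2-fold lower, against 15.6% of genes.

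Rapamycin inhibits TORC1, which is also less active when nitrogen is short. Most of these genes had lower values with rapamycin than in nitrogen starvation, and the cause of that difference was not tested. With rapamycin 1 of 32 members was at least 2-fold higher, against 11.1% of genes (STR2 at 1.12), and 7 of 32 were at least 2-fold lower, against 11.5%. Those 7 included MUP1 at −2.88, MHT1 at −2.49, MMP1 at −2.24 and MET14 at −1.48. The nitrogen value exceeded the rapamycin value by 2-fold or more for 22 of 32 members, against 5.9% of genes, with a median difference of 2.08 over members and 0.04 over all genes. The largest such differences were those of SEO1 (7.21), MMP1 (6.68), MHT1 (5.99) and MET1 (5.58). Glucose starvation with rapamycin gave 3 of 38 members at least 2-fold lower, against 15.3% of genes, and was 2-fold or more above rapamycin alone for 6 of 32 members, against 8.19%. MMP1 differed most there, by 2.50. The amino acid array exceeded the nitrogen array by 2-fold or more for 2 of 37 members, against 4.39% of genes, MUP1 by 1.24 and SAM3 by 1.23.

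**Figure D3:**
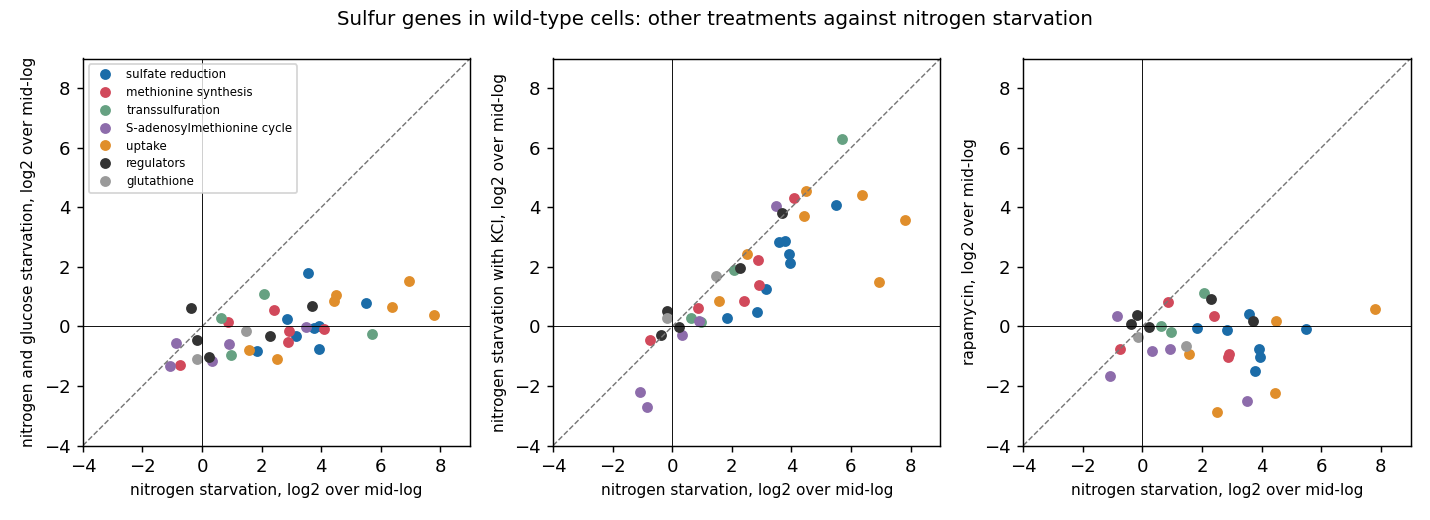
Each point is 1 sulfur gene in wild-type cells, coloured by role, with its log2 ratio in nitrogen starvation on the horizontal axes. The vertical axes give nitrogen and glucose starvation, nitrogen starvation with KCl, and rapamycin, and the dashed line marks equal values. MET32 is not plotted, having no value in nitrogen starvation. Without nitrogen and glucose 4 of 38 genes were at least 2-fold higher than mid-log, against 16.3% of all genes. Another 6 were at least 2-fold lower, against 18.1%. With rapamycin MUP1 (−2.88), MHT1 (−2.49) and MMP1 (−2.24) lie lowest. With KCl 13 of 37 genes lie 2-fold or more below their nitrogen value, against 9.81% of all genes. SUL1, at 6.94 and 1.5, lies far below the line.

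Under the treatments that kept nitrogen and amino acids in the medium, part of the set stood below mid-log. In 0.1% glucose 14 of 38 members of wild-type cells were at least 2-fold lower, against 19.1% of genes, with SAM2 at −2.67, SAM4 at −2.09, SAM3 at −1.94 and MET14 at −1.91. At heat shock 11 of 34 were, against 18.4%, with MET6 at −2.84 and SAM1 at −2.67. In KCl the 13 lower members of wild-type cells were led by MMP1 at −2.92, SAM4 at −2.46, MUP1 at −2.28 and MET6 at −2.12. Peroxide gave 5 of 35 members higher, against 9.97%, and 5 lower, against 12.3%. The higher ones were SUL2 at 1.61, STR3 at 1.30, MET22 at 1.29, MET16 at 1.16 and STR2 at 1.07.

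Over the 7 single treatments of wild-type cells, the mean differed from 0 for 5 of 31 members. By limma's test of that mean, 2 rose, against 23.1% of all genes, and 3 fell, against 27.8%. STR2 rose by 1.20 (SE 0.214, adjusted p = 0.00151) and MET28 by 1.41 (SE 0.534, adjusted p = 0.0498). MET28 was at 3.70 and 4.19 without nitrogen or amino acids and at 0.01 to 0.70 on the other 5 arrays. Its call was lost with missing values kept (limma adjusted p = 0.0524), a trended fit (0.0526) or zeros kept (0.053). It was also lost when the array of nitrogen starvation, amino acid starvation, KCl, heat shock or peroxide was left out (limma adjusted p from 0.0592 to 0.122). MET7 fell by 0.73 (SE 0.131, adjusted p = 0.00157), SAM4 by 1.19 (SE 0.299, adjusted p = 0.00851) and SAH1 by 0.67 (SE 0.203, adjusted p = 0.021), although SAM4 was above 0 with peroxide (0.20) and SAH1 with rapamycin (0.36). The SAH1 call was lost without the array of nitrogen starvation (limma adjusted p = 0.0522) or peroxide (0.0526). The shares of members called lie below those of all genes, and SEO1 (2.53, SE 1.07, adjusted p = 0.0727) and MET1 (1.69, SE 0.848, adjusted p = 0.12) were not called.

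In nitrogen starvation the sulfur genes had ratios in snf1 cells close to those in wild-type cells, as did genes in general. The median absolute difference was 0.29 over members and 0.32 over all genes. The snf1 and wild-type ratios of the 37 members differed by −0.72 (SAH1) to 0.90 (MET3), and 0 members differed by 2-fold upward or downward, against 0.734% and 3.67% of genes. In KCl 2 of 35 members were 2-fold or more above the wild-type ratio, against 1.36%, MET32 by 1.42 and SAM4 by 1.00. The snf1 array of KCl had 14 of 38 members at least 2-fold below mid-log, against 13.4% of genes.

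In 0.1% glucose the strains differed more widely, among members and among all genes. The snf1 ratio was 2-fold or more above the wild-type ratio for 10 of 38 members, against 14.3% of genes, and below it for 1, MUP1, against 6.28%. MET16 differed most upward, from −1.62 in wild-type to 0.38 in snf1 cells, and MUP1 downward, from −0.58 to −2.77. The snf1 array had 6 of 38 members at least 2-fold lower in 0.1% glucose, against 13.3%, and 6 of 38 in 0.02% glucose, against 7.53%. Going from 0.1% to 0.02% glucose, the snf1 ratio was 2-fold or more lower for 3 of 38 members, against 9.64%, most for SUL1 (from 2.01 to 0.41).

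Over the 3 matched treatments, the strains were compared by limma with the treatment as a block. Each ratio was to the strain's own mid-log cells. The response differed between strains for 0 of 34 members, against 0.0185% of all genes (1 of 5405). At an unadjusted p below 0.05 there were 2 members and 738 genes. Coefficients ran from −0.58 for MUP1 (SE 0.518) to 1.12 for SAM4 (SE 0.301, adjusted p = 0.303). In untreated cells 1 of 34 members was at least 2-fold higher in snf1 than in wild-type cells, against 2.14% of genes, which was STR2 at 1.39.

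**Figure D4:**
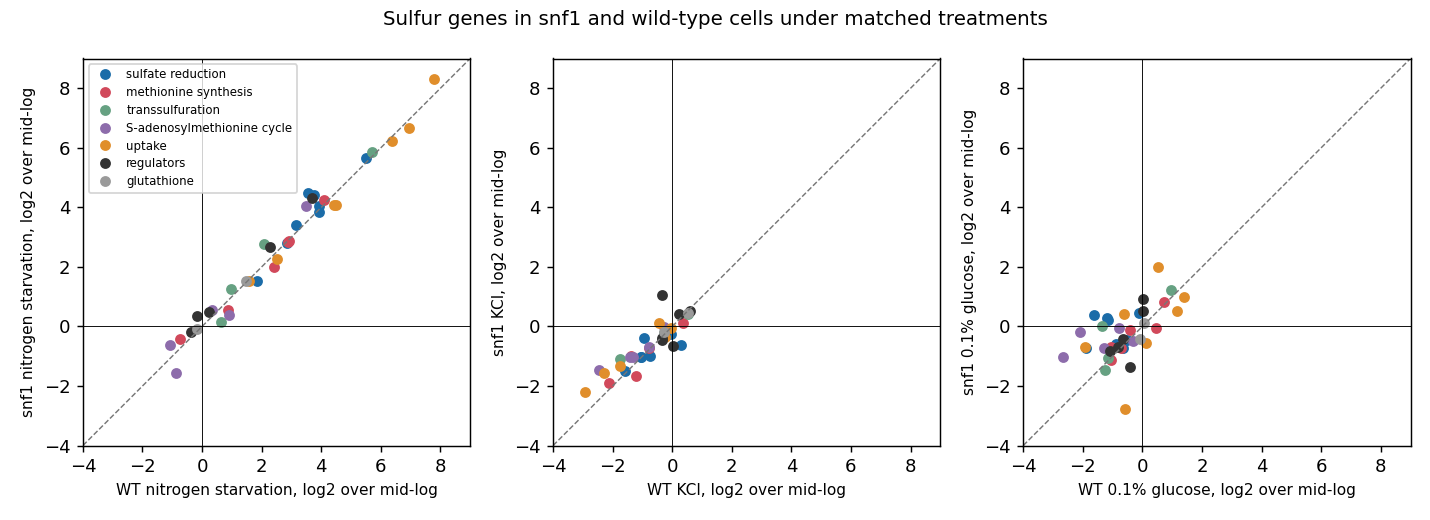
Each point is 1 sulfur gene, coloured by role, with its log2 ratio in wild-type cells on the horizontal axis and in snf1 cells on the vertical axis under nitrogen starvation, KCl and 0.1% glucose. The dashed line marks equal values. Points lie along the line in nitrogen starvation, from SAM4 and SAH1 below 0 to SEO1 at 7.80 and 8.32, and scatter about it in 0.1% glucose.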

How the data were processed

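The authors deposited a table of log2 ratios of Cy5 over Cy3 with 2 decimals, 1 column per array. The base of the logarithm, background correction and normalisation were not given in the sources used here. Base 2 was taken from the range of the values, and another base would rescale every value. Treated cells were in Cy5, per the labels, except on the peroxide array, whose sign was reversed. Columns left unused numbered 0. Exact zeros on arrays with over 500 of them were set to no value, and 61 control spots were left out. Of 6256 gene probes, 4075 had a symbol, 125 of them updated through RefSeq (ECM17 to MET5). Probes of one gene were averaged.

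Tests used limma 3.58.1 in R 4.3.3 on genes with a value on every array of the fit. Benjamini-Hochberg adjustment was over all of them, with a threshold of 0.05. The tests were also run on simulated data with large changes set into independent noise. That run does not show how they behave on smaller changes or on arrays of unlike treatments. Differences between arrays, and single arrays, are given as counts at 2-fold (a log2 size of 1 or more).

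Every member is named. Values are printed for the 2 members per role with the widest range, for MET4, MET30 and CBF1, and for MET7 and STR2, called opposite to their role's median in the mean of the single treatments. Array values of other members, such as SUL1, SUL2, MET16, MET31 and MET32, were added after their values were seen. Other pathway genes were named where called. Members, lists and comparisons were chosen with earlier results of these data known. Other settings were zeros kept, arrays centred, missing values kept, a trended fit, other thresholds, fewer arrays and no treatment block.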

Additional observations from a re-analysis of the deposited data

Results flagged for a closer look

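Values far from the rest of their group were looked for in 75 groups of 5 to 9 arrays (members on the removal arrays and on the other arrays), and 11 stood out. Chance alone gives about 1 in 20 among like replicates, whereas each group here mixes different treatments. In 8 of the 11 the array of nitrogen and glucose starvation was the lowest of the 5 removal arrays. MET2 read −0.09 there against 4.08 to 4.41 on the other 4, MET17 −0.52 against 2.23 to 2.89, STR3 −0.26 against 5.69 to 6.31, and MHT1 −0.03 against 3.50 to 4.04. MUP3 read 1.05 against 4.08 to 4.55, MET28 0.69 against 3.70 to 4.30, MET30 −0.32 against 1.98 to 2.68, and GSH1 −0.14 against 1.47 to 1.76. These flagged genes cover every role but sulfate reduction, and each array is a single culture. The sulfate reduction genes also had their lowest removal value on that array without being flagged, such as MET5 at −0.77 against 2.12 to 4.19.

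SAM2 at −2.67 in wild-type cells in 0.1% glucose was the lowest of 9 arrays, the others reading −1.31 to −0.22. SUL1 at 2.01 in snf1 cells in 0.1% glucose was the highest of 5, the others reading 0.29 to 0.57. MET30 at 0.93 with rapamycin was the highest of 9, the others reading −1.09 to −0.12.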

How the results depend on the processing

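For removal of nitrogen or amino acids, wild-type arrays alone gave 0 genes higher, 0 lower and 0 members higher. With nitrogen and glucose starvation also left out they gave 64 genes higher and 65 lower, and wild-type single treatments gave 49 and 1. A threshold of 0.01 gave 26 genes higher, 8 lower and 12 members higher. Leaving out 1 array at a time gave 28 to 282 genes higher, 13 to 358 lower, 13 to 23 members higher and 0 lower. For the mean of the single treatments, 1 of 35 members was higher with zeros kept, against 1189 of 5469 genes. With arrays centred 4 of 31 members were higher, against 1238 of 4866 genes. A trended fit gave 1 of 31, against 1182 of 4866 genes, and a threshold of 0.01 gave 1 of 31, against 725 of 4866 genes. Leaving out 1 array gave 1 to 3 members higher, 2 to 4 lower, 931 to 1181 genes higher and 1150 to 1391 lower. For snf1 against wild type, genes lower numbered 16 with arrays centred and 0 with zeros kept, missing values kept, a trended fit, a threshold of 0.01 or no treatment block, and members called were 0 throughout. Leaving out 1 array gave 0 to 14 genes higher and 0 to 31 lower. Members lower with rapamycin numbered 14 at 1.5-fold and 4 at 3-fold, and members higher in nitrogen and glucose starvation 9 and 1. Shares over all genes at those sizes are not given here, so these counts do not compare members with other genes. No called member changed direction. Of members not called, the coefficient changed sign under at least 1 setting for 3 of 11 with removal (SAM4 from −0.19 to 0.45), 10 of 26 over the single treatments and 18 of 34 between strains. The median over members of the mean of single treatments, 0.35, was −0.07 without nitrogen starvation and −0.15 without amino acid starvation. The causes were not tested. With 1 array per condition, no difference between 2 conditions has an error of its own.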

Other observations

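Across the 14 treated arrays, the profile of the median of 7 sulfate reduction genes was followed by other genes too. These Pearson correlations are a description over arrays that may share a mid-log RNA, and they rest on the 4 arrays of removal with glucose. Of 31 members 18 had r of at least 0.9, of which 6 belong to the profile (each set against the median of its other genes) and 12 do not. Among the 12 were MET17 at 0.969, SEO1 at 0.965 and MET28 at 0.961. SAM4 (0.211), CBF1 (0.185) and SAH1 (−0.51) had the lowest. Of the 3497 named genes ranked, 16 that are not members reached 0.9. The first 10 were SER33, for a dehydrogenase of serine synthesis (0.965), RAD59 (0.963), MXR1 (0.953), BNA3 (0.949), IES5 (0.945), OPT1 (0.942), POP1 (0.933), CUP1-1 (0.931), AAD3 (0.928) and NIT1 (0.927). CUP1-1 shares signal with its identical copy. Over the 10 arrays left after those 4 are set aside, r was 0.497 for MET17, 0.149 for SEO1 and 0.0837 for MET28, and it was 0.0715 for SER33, 0.509 for RAD59, 0.704 for MXR1 and −0.21 for OPT1.

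SAM3 and SAM4 lie in tandem in the RefSeq R64 annotation and had values of opposite sign without nitrogen or amino acids. In nitrogen starvation SAM3 read 1.58 and SAM4 −1.08, and in amino acid starvation 2.81 and −0.67.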
